A study of Mus musculus with 7 samples.

Results

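Cd4, Cd8a and Cd8b1 encode the T cell co-receptors, and their transcripts were followed here through double-negative (DN) thymocytes of adult mouse thymus. These 3 genes were chosen by symbol, as the whole of the CD4 and CD8 co-receptor set, from the 32286 features counted. CD4 binds MHC class II, whereas CD8, in thymocytes mostly a heterodimer of the CD8α and CD8β chains, binds MHC class I. The tails of CD4 and CD8α carry a cysteine motif that holds the kinase LCK, which places it beside the T cell receptor (TCR), and CD8β lacks that motif. DN thymocytes display neither co-receptor. After β-selection, CD8 usually comes first, at the immature single-positive (ISP) stage, and CD4 follows at the double-positive (DP) stage, while most γδ T cells leave the thymus with neither CD4 nor CD8αβ.

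The study asked how αβ and γδ T cell precursors part, and counted unique molecular identifiers (UMIs, each standing for 1 captured transcript molecule) by droplet sequencing of the 3′ ends of transcripts. WT C57BL/6 mice of 6 to 8 weeks gave 5 libraries from pooled thymi, namely DN3a cells before selection, the DN3b γδ− and DN4 γδ− cells of the αβ branch, and the DN3b γδ+ and DN4 γδ+ cells of the γδ branch. Mice labelled Lat-/-TCRd-H2BEGFP on the same strain (Lat-KO), which lack the TCR signalling adaptor LAT and carry a fluorescent reporter at the TCR δ locus, gave 2 libraries, sorted at the DN3 stage into cells without surface γδ TCR (γδ−) and cells that stained for it at intermediate strength (γδint). Below, DN3a, DN3b and DN4 without further label are WT. The 500 splenic B cells added to each library served here as cells that should lack these transcripts. WT cells positive for CD4 or CD8 had been taken out with magnetic beads, whereas Lat-KO thymocytes went to the sorter whole, and the sort stain of both held antibodies to CD4 and CD8α. All shares below are thus of cells gated on surface proteins that include products of the genes measured. Each group had 1 library and so no replicate: differences between groups are given as values, untested, with 95% intervals for counting error alone, which treat UMIs as independent although a few barcodes can hold many of them. A lower summed level can mean fewer barcodes with the gene or fewer UMIs in each.

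Thymocyte barcodes were those past the quality filter with at most 1 UMI of the B cell genes Cd79a, Cd79b and Ms4a1. They numbered 71081 of 90016 deposited, from 5274 to 18515 per library, and 86.4% to 99.5% of them held at least 10 UMIs of T cell markers. Their median depth ran from 5737.5 UMIs in Lat-KO DN3 γδint to 18506 in DN4 γδ−, so shares of barcodes with a UMI were taken after each barcode had been thinned to 4000 UMIs. Lat read 357 to 648 counts per 1000000 UMIs (CPM) in WT libraries and 4.83 and 0.899 CPM in the Lat-KO ones. Ribosomal protein transcripts made up 18.2% of thymocyte UMIs in Lat-KO DN3 γδint and 27.7% to 33.7% elsewhere, and 19.9% against 29.9% to 36.2% in the added B cells. Of 89086 barcode sequences, 925 occurred in more than 1 library.

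The LCK-binding motif was legible in the mouse transcripts counted here. The last 24 codons before the stop codon are shown for each gene, because they separate the CD4 and CD8α tails from that of CD8β. Capitals mark an in-frame match to a cysteine codon (TGC or TGT), any codon, a second cysteine codon and a proline codon (CCN). The segments were read from GRCm38 with the GENCODE annotation and span exons 9 to 10 of Cd4 (chromosome 6, minus strand), 4 to 5 of Cd8a and 4 to 6 of Cd8b1 (both plus strand).

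Cd4: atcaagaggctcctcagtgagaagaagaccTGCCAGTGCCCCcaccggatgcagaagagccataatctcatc

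Cd8a: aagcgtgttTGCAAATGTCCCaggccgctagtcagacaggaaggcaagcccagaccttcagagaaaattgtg

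Cd8b1: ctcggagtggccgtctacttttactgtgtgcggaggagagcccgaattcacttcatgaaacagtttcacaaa

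Cd4 and Cd8a each held 1 match and Cd8b1 held 0. Both CD8 genes (Cd8b1, ENSMUSG00000053044, and Cd8a, ENSMUSG00000053977) lie side by side on mouse chromosome 6 in the same orientation, Cd8b1 at chr6:71322788-71337494 and Cd8a at chr6:71373427-71379173, with 35.9 kb between them. Cd4 (ENSMUSG00000023274) lies on the same chromosome at chr6:124864692-124888221, 53.5 Mb away. The 250 bases before the annotated start of Cd8a (chr6:71373177-71373426, plus strand, GRCm38.p6, RefSeq) follow, since Cd8a was the member with a promoter entry (1 of 3), and its transcript stayed scarce in every library. Capitals mark matches to the E box CANNTG, the core bound by basic helix-loop-helix factors such as those encoded by Tcf3 and Tcf12.

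Cd8a promoter: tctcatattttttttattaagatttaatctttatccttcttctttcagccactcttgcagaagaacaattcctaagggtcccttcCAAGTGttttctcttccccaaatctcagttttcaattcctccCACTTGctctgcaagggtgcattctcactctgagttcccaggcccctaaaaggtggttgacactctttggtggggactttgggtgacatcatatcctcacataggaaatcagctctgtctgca

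It held 2 E boxes, starting 165 and 123 bases before the start. At least 1 E box occurred in 66.2% of 32851 promoter windows cut in the same way. The Runx core TGTGGT did not occur in it on either strand, and was in 14.0% of the windows. No GATA core AGATAA was there on either strand (9.99% of windows). The Ets core GGAAGT, also searched on both strands, was missing too and had matches in 19.7% of windows.

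Cd8b1, the CD8β chain gene, was the most variable of the co-receptor transcripts. DN3a cells had 1.30 CPM (95% interval 1.02 to 1.65), DN3b γδ− cells 11.6 CPM (lower bound 11.3) and DN4 γδ− cells 98.8 CPM (97.6 to 100.1). On the γδ side it read 1.05 CPM in DN3b γδ+ (0.908 to 1.20) and 8.65 in DN4 γδ+ (7.97 to 9.37). The Lat-KO libraries read 0.159 CPM in DN3 γδ− (0.0687 to 0.313) and 2.38 in DN3 γδint (1.91 to 2.92). DN4 γδ− stood above all other libraries, and along the order of levels only DN3a and DN3b γδ+ were neighbours whose ratio had an interval that spanned 0 on the log2 scale.

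The second CD8 chain followed at a lower count. Cd8a, which encodes CD8α, read 0.0558 CPM in DN3a (3 UMIs), 1.64 CPM in the DN3b γδ− library and 7.93 CPM in the DN4 γδ− library (7.58 to 8.29). The γδ branch had 0.327 CPM in DN3b γδ+ and 1.68 CPM in DN4 γδ+ (1.39 to 2.01), and the Lat-KO libraries 0.0199 CPM (γδ−, 1 UMI) and 0.793 CPM (γδint). Again DN4 γδ− was highest. DN4 γδ+ and DN3b γδ− could not be told apart (log2 ratio 0.03, −0.27 to 0.32), nor could DN3a and Lat-KO DN3 γδ−.

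Cd4 stayed near the bottom of the range everywhere and its order differed. DN3a had 0.298 CPM (16 UMIs). From DN3b to DN4 the values were 0.130 and 0.657 CPM for γδ− cells, and 0.112 and 1.13 CPM (0.896 to 1.41) for γδ+ cells. The Lat-KO libraries had 0.537 CPM (γδ−) and 0.635 CPM (γδint). DN4 γδ+ was highest and both DN3b libraries were lowest. Among the 4 libraries in between, each neighbouring ratio had an interval that spanned 0.

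**Figure D1:**
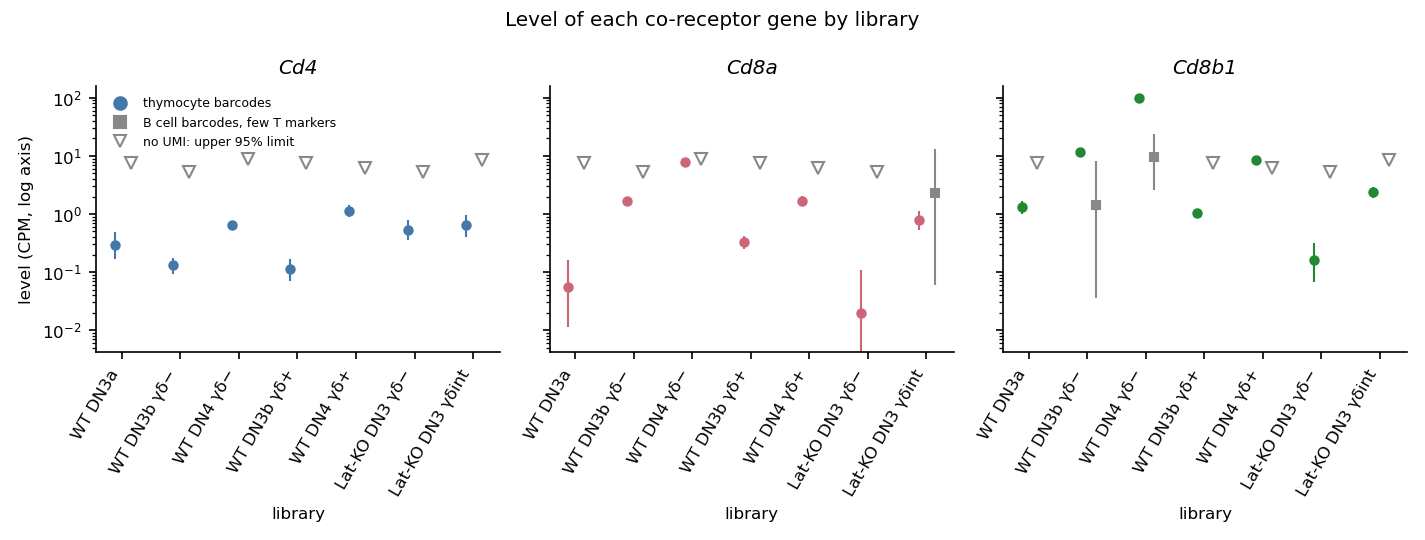
Level of Cd4, Cd8a and Cd8b1 in CPM (log axis) in each of the 7 libraries. Filled circles are sums over thymocyte barcodes with exact Poisson 95% intervals, grey squares are added B cells with few T cell markers, and open triangles are upper limits where those B cells held no UMI. Cd8b1 reached 98.8 CPM in DN4 γδ−, and every Cd4 value lay under the B cell upper limit of its library.

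The added B cells set how far these low levels could be read. B cell barcodes with few T cell markers (114 to 256 per library, median 2418 to 3696 UMIs) held 9.41 CPM of Cd8b1 in DN4 γδ− (4 UMIs, 2.56 to 24.1), and 1 UMI or none elsewhere. The Cd8b1 level of thymocytes lay above the upper limit for these B cells, a subset chosen after seeing the data, in DN4 γδ−, in DN3b γδ− (limit 8.01 CPM) and in DN4 γδ+ (limit 6.29 CPM). In the other 4 libraries it lay below that limit, of 5.29 to 8.59 CPM. Cd8a in DN4 γδ− fell just short of its limit of 8.68 CPM, although no such B cell held a Cd8a UMI, and all Cd8a and Cd4 levels were likewise not distinguishable from B cells at this depth. Against all barcodes with 10 or more B cell marker UMIs, Cd8b1 lay above the upper limit in DN4 γδ− alone (98.8 against 92.4 CPM). That wider limit was 11.9 CPM in DN3b γδ− (thymocytes 11.6) and 22.9 CPM in DN4 γδ+ (thymocytes 8.65).

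Along the αβ branch, the CD8 genes were higher at each step. Cd8b1 was higher in DN3b γδ− than in DN3a by 3.16 on the log2 scale (2.82 to 3.52), and Cd8a by 4.88 (3.33 to 7.16, on 3 UMIs in DN3a). With the level of all barcodes with 10 or more B cell marker UMIs subtracted, these values were 1.41 and 2.81. Cd4 went the other way, at −1.20 (−2.05 to −0.27), or −0.84 when libraries were scaled by TMM. None of the co-receptor genes reached the 20 CPM in either library that was asked before a gene counted as past 2-fold, and 11.4% of genes above that level were higher and 14.6% lower.

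From DN3b γδ− to DN4 γδ−, all members were higher. Cd8b1 was 8.50-fold higher (8.22 to 8.80), a log2 ratio of 3.09 on 24053 and 3936 UMIs. The difference was 2.27 for Cd8a (2.13 to 2.41) and 2.34 for Cd4 (1.85 to 2.85, 44 against 160 UMIs). Cd8b1, the 1 member above 20 CPM, was among the 0.524% of 5148 genes past 2-fold upward, while 0.66% were past 2-fold downward.

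Haemoglobin transcripts moved along with Cd8b1 here, and their part in the result was not tested. All 5 erythroid markers (Hba-a1, Hba-a2, Hbb-bs, Hbb-bt and Alas2) were present in both libraries, with a summed level of 24.9 CPM in DN3b γδ− and 170 CPM in DN4 γδ−. Over the 7 libraries that sum ran from 0.167 CPM in DN3a, where Hbb-bt was at 0, to 170 CPM. Without barcodes holding 5 or more UMIs of other cell types, the log2 ratio of Cd8b1 was 3.12. Marker sums of other types ran from 99.3 to 190 CPM (myeloid, lowest in DN4 γδ−), from 0.952 to 23.5 CPM (plasmacytoid, highest in DN4 γδ+) and from 0 to 7.55 CPM (NK, highest in DN4 γδ+, with Ncr1 at 0 in every library).

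On the γδ branch, the CD8 genes gave unlike values at the first step, at levels under the B cell upper limits. Cd8b1 differed by −0.32 between DN3b γδ+ and DN3a (−0.71 to 0.10), a value that was 0.01 with TMM scaling and −0.98 without the 8% of barcodes with the most UMIs. Cd8a differed by 2.55 (0.94 to 4.86), on 64 UMIs in DN3b γδ+ and 3 in DN3a. Its levels there, 0.327 and 0.0558 CPM, lay under B cell limits of 7.54 and 7.62 CPM. Cd4 gave −1.41 (−2.40 to −0.38). No member passed 20 CPM, and 11.5% of genes above it were past 2-fold upward and 13.4% downward.

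At the second γδ step, from DN3b γδ+ to DN4 γδ+, the CD8 genes were again higher. Cd8b1 differed by 3.05 (2.82 to 3.28), an 8.26-fold higher level, Cd8a by 2.36 (1.91 to 2.82) and Cd4 by 3.33 (2.64 to 4.08). All 3 stayed under 20 CPM, and 10.5% of genes above it were past 2-fold upward and 7.33% downward. TMM scaling lowered the 3 values to 2.74, 2.05 and 3.03. The Cd8b1 step has no value once the level of all barcodes with 10 or more B cell marker UMIs is subtracted, since that level exceeds the one in DN4 γδ+ thymocytes.

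Set side by side at the same stage, both CD8 genes were lower in γδ+ than in γδ− cells. The log2 ratio of Cd8b1 was −3.47 in DN3b (−3.68 to −3.27) and −3.51 in DN4 (−3.63 to −3.40). Cd8a gave −2.33 in DN3b (−2.73 to −1.96) and −2.24 in DN4 (−2.52 to −1.97). Subtracting the level of all barcodes with 10 or more B cell marker UMIs (149 in DN4 γδ−, of which 114 held few T cell markers) left −0.26 and −0.03 for Cd8a and −1.73 for Cd8b1 in DN3b. In DN4 that subtraction gave no value for Cd8b1, because these barcodes held 12.4 CPM in DN4 γδ+ (10 UMIs, all in 1 barcode), above the 8.65 CPM of thymocytes, and 74.6 CPM in DN4 γδ−. The Cd8a level subtracted came from 4 UMIs in 3 barcodes of DN3b γδ− and 7 UMIs in 3 barcodes of DN4 γδ−. Among B cells with few T cell markers, Cd8a had 0 UMIs in all 4 libraries, so a subtraction of their level could not bear on it. Cd8b1 in those B cells read 1.44 CPM in DN3b γδ− (1 UMI) and 9.41 CPM in DN4 γδ− (4 UMIs). Thymocytes there read 11.6 and 98.8 CPM, and those B cells held no Cd8b1 UMI in the γδ+ libraries. In DN3b, 5.13% of genes above 20 CPM were past 2-fold upward in γδ+ cells and 1.79% downward. In DN4 those shares were 18.4% and 8.96%, and Cd8b1 was among the latter. Cd4 showed no such order, at −0.21 in DN3b (−1.02 to 0.56) and 0.78 in DN4 (0.38 to 1.18), or 0.44 with TMM scaling.

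In Lat-KO DN3 γδ− cells, CD8 transcripts were nearly undetected. Cd8b1 had 8 UMIs in Lat-KO DN3 γδ− against 70 in DN3a, a log2 ratio of −3.03 (−4.30 to −1.98), and −1.88 when each barcode's own CPM was averaged. Cd8a had 1 UMI against 3 and is given no ratio, and Cd4 gave 0.85 (−0.09 to 1.84). Among genes above 20 CPM, 2.28% were past 2-fold upward and 0.557% downward. Genotype, bead depletion and library cannot be told apart in these libraries.

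Within the Lat-KO mice, Cd8b1 was higher in DN3 γδint than in DN3 γδ− by 3.90 on the log2 scale (2.86 to 5.16, 90 against 8 UMIs), or 2.65 from averaged barcodes. Cd8a had 30 UMIs against 1, a log2 ratio of 5.32 (2.73 to 10.67), and Cd4 gave 0.24 (−0.61 to 1.09). Those 30 Cd8a UMIs came from 18 barcodes, with 11 of them in 2 barcodes, which the interval does not allow for. The share of genes above 20 CPM past 2-fold was 4.64% upward and 3.95% downward, with no member among those genes. Lat-KO DN3 γδint was also the library low in ribosomal protein transcripts, and the part of that in these values was not tested.

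**Figure D2:**
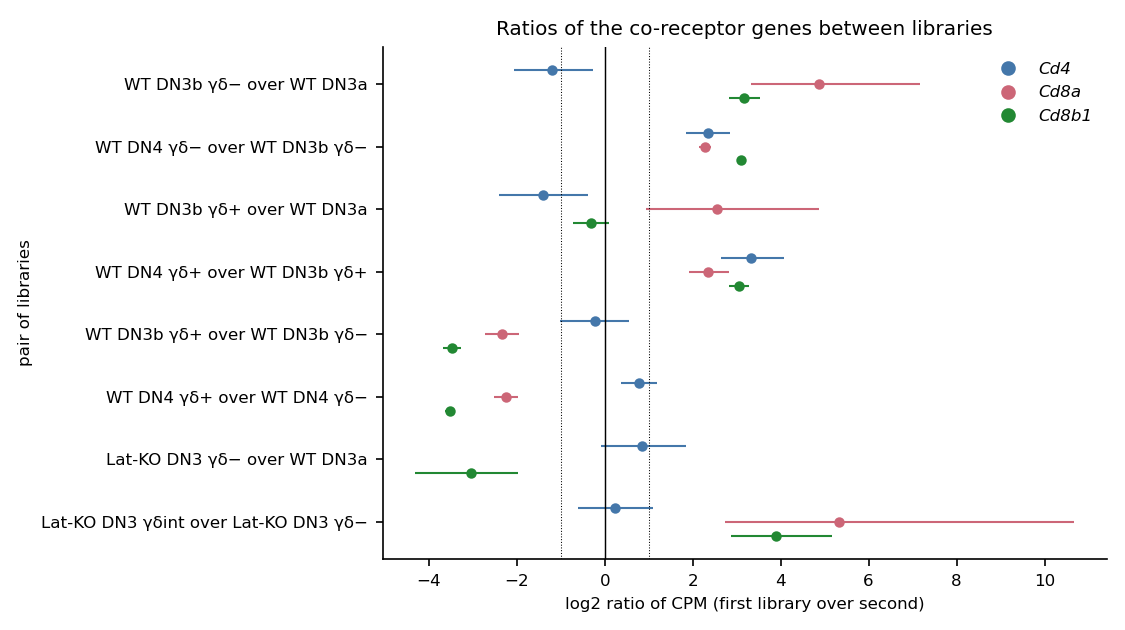
Log2 ratio of CPM of Cd4, Cd8a and Cd8b1 between pairs of libraries (first over second), with exact conditional 95% intervals that cover counting error only. Dotted lines mark 2-fold. The largest Cd8b1 difference between the γδ+ and γδ− cells of a stage was −3.51, in DN4, and Cd8a has no point for Lat-KO DN3 γδ− over DN3a.

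At equal depth, Cd8b1 was found in 28.5% of DN4 γδ− thymocytes (27.7 to 29.3%, 3367 of 11815 barcodes thinned to 4000 UMIs). Next came DN3b γδ− with 3.92% and DN4 γδ+ with 2.32%. Under 1% lay Lat-KO DN3 γδint with 0.683%, DN3a with 0.464%, DN3b γδ+ with 0.313% and Lat-KO DN3 γδ− with 0.0163%. Without thinning, 58.6% of DN4 γδ− barcodes held a Cd8b1 UMI at a median of 18506 UMIs, against 3.51% of the B cells with few T cell markers at a median of 3332. Of 26 such B cells deep enough to be thinned, 0 held Cd8b1, for an upper 95% limit of 13.2%.

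Cd8a reached 3.03% of DN4 γδ− barcodes at 4000 UMIs (2.73 to 3.36%), 0.548% of DN4 γδ+ and 0.492% of DN3b γδ− barcodes. Lower still were Lat-KO DN3 γδint (0.264%), DN3b γδ+ (0.138%), DN3a (0.0310%) and Lat-KO DN3 γδ−, with 0 of 6125 (upper 95% limit 0.0602%). For Cd4 the shares ran from 0.0553% in DN3b γδ+ to 0.505% in DN4 γδ+ (35 of 6934). These are shares of barcodes with a captured molecule and not of cells expressing the gene.

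Cd8b1 was uneven among barcodes. In DN4 γδ−, at 4000 UMIs, 71.5% of barcodes had no Cd8b1 UMI, 19.3% had 1, 5.89% had 2, 236 barcodes had 3 and 1.29% had 4 or more, and the variance was 1.68 times the mean. In DN4 γδ+ that quotient was 2.25, with 97.7% of barcodes at 0 and 0.159% at 4 or more. Before thinning, 1652 barcodes of DN4 γδ− with 5 or more Cd8b1 UMIs held 50.3% of all its Cd8b1 UMIs, and single barcodes reached 27 UMIs there and 33 in DN4 γδ+. Cd4 never exceeded 3 UMIs in a barcode.

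**Figure D3:**
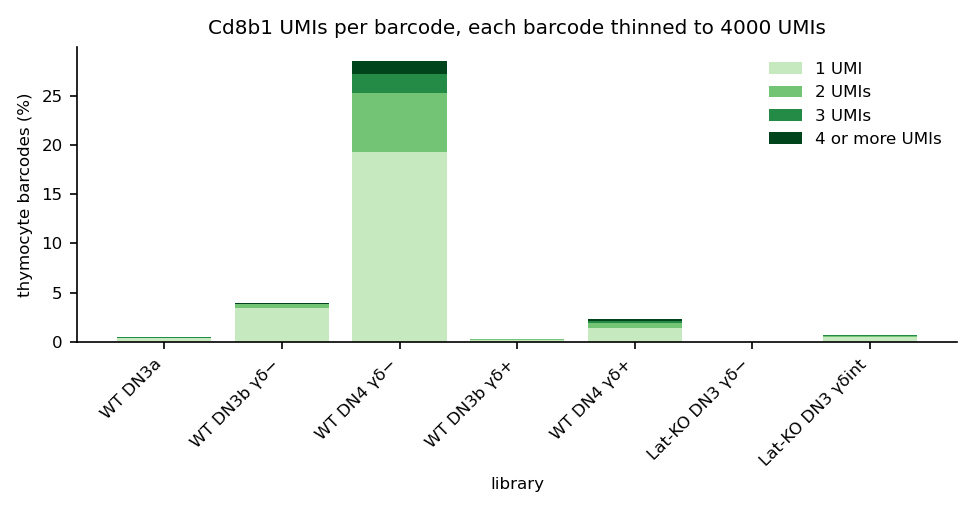
Share of thymocyte barcodes (%) with 1, 2, 3 or at least 4 UMIs of Cd8b1 in each library, each barcode thinned to 4000 UMIs. In DN4 γδ− the bar reaches 28.5%, most of it from barcodes with 1 UMI, and the next highest bar is DN3b γδ− at 3.92%.

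Because CD8αβ needs both chains, co-detection of their transcripts was counted. Both Cd8a and Cd8b1 were found in 1.31% of DN4 γδ− barcodes at 4000 UMIs (1.11 to 1.53%, 155 of 11815), and in 9.43% without thinning. Barcodes with Cd8a held Cd8b1 more often than those without it, at 43.3% (38.1 to 48.6%) against 28.0% (27.2 to 28.9%). In DN3b γδ− those shares were 17.2% of 87 barcodes (9.98 to 26.8%) and 3.85%, and in DN4 γδ+ 31.6% of 38 (17.5 to 48.7%) and 2.16%. Lat-KO DN3 γδint had 2 of 12 barcodes with Cd8a that also held Cd8b1 (16.7%, 2.09 to 48.4%), against 0.641% of those without it. Intervals for the pairs of shares were apart in these 4 libraries, on 2 barcodes in the last, and doublets were left in. In DN3b γδ+, 0 of 15 barcodes with Cd8a held Cd8b1 at 4000 UMIs (upper 95% limit 21.8%). Without thinning, 10 of 57 did there (17.5%, 8.75 to 29.9%), against 0.788% of those without Cd8a (0.640 to 0.961%), and these intervals were apart too.

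Cd4 and Cd8b1 were found together in barcodes of the αβ branch and, without thinning, of the γδ branch. In DN4 γδ−, 15 of 39 barcodes with Cd4 held Cd8b1 at 4000 UMIs (38.5%, 23.4 to 55.4%), against 28.5% of barcodes without Cd4, and the intervals overlapped. At that depth 1 barcode of the library held both Cd4 and Cd8a, where the product of the 2 shares gives 1.18. Without thinning, 22 of 151 barcodes with Cd4 held Cd8a (14.6%, 9.36 to 21.2%), against 11.7% of those without Cd4, and the intervals overlapped. In DN4 γδ+, the library with the highest Cd4 level, 0 of 35 barcodes with Cd4 held Cd8b1 or Cd8a (upper 95% limit 10.0% for either), against 2.33% with Cd8b1 among barcodes without Cd4. Before thinning, 3 of 73 held Cd8b1 there (4.11%, 0.856 to 11.5%) and 3.27% of those without Cd4. Unthinned, Cd8b1 was in 81.5% of 151 barcodes with Cd4 in DN4 γδ− (58.3% without Cd4) and in 51.2% of 43 in DN3b γδ− (13.8% without). In DN3b γδ+ it was in 2 of 22 (9.09%, 1.12 to 29.2%), against 0.851% without Cd4. Unthinned barcodes differ in depth, and its part in these shares was not tested. At 4000 UMIs, 4 of 11 barcodes with Cd4 held Cd8b1 in DN3b γδ− (36.4%, 10.9 to 69.2%), against 3.90% without. In DN3b γδ+, 0 of 6 did at that depth (upper 95% limit 45.9%).

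**Figure D4:**
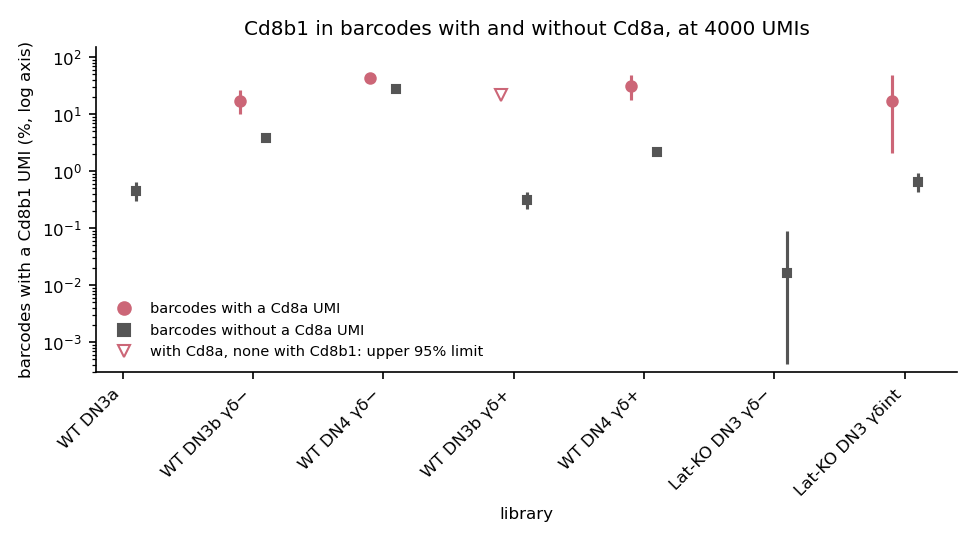
Share of barcodes with a Cd8b1 UMI (%, log axis) among thymocyte barcodes with and without a Cd8a UMI, each thinned to 4000 UMIs, with exact Clopper-Pearson 95% intervals. The share was higher with Cd8a, with intervals apart, in DN3b γδ−, DN4 γδ−, DN4 γδ+ and, on 2 of 12 barcodes, Lat-KO DN3 γδint. DN3a (2 barcodes with Cd8a) and Lat-KO DN3 γδ− (0) have no point for Cd8a.

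Cycling state was read from Mki67 and Top2a, which mark dividing cells, with at least 2 UMIs taken as cycling and 0 as non-cycling. Cycling barcodes made up 88.4%, 83.6% and 80.8% of DN3b γδ−, DN4 γδ− and DN3b γδ+, and 6.16% to 23.3% of the other libraries. Over the 7 libraries, the interval of the ratio of cycling to non-cycling barcodes spanned 0 in 6 for Cd8b1, in 5 for Cd4 and in all 5 that gave a ratio for Cd8a. No member was higher in cycling barcodes of any library with an interval above 0.

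The exception for Cd8b1 was DN4 γδ−, at 98.0 CPM in cycling and 126 CPM in non-cycling barcodes, a log2 ratio of −0.37 (−0.47 to −0.26). Non-cycling barcodes were shallow there, with a median of 4438.5 UMIs against 19996, and at 4000 UMIs the shares with Cd8b1 were 28.5% and 31.7% with overlapping intervals. When cycling was called after thinning, the log2 ratio was −0.04. Cd4 was lower in cycling barcodes of DN4 γδ− at −1.55 (−2.44 to −0.52), or −0.16 when called after thinning, and of Lat-KO DN3 γδint at −2.93 (−6.10 to −0.84, on 2 UMIs).

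Among the genes around the CD8 locus, Rmnd5a, Smyd1 and Gm44175 were highest in DN4 γδ−, as Cd8b1 was. Rmnd5a, a ubiquitin ligase subunit gene 9.461 kb beyond Cd8a, read 25.8 CPM in DN3b γδ− and 72.6 in DN4 γδ−, and between 24.7 and 43.1 CPM in the other libraries. Smyd1, a muscle methyltransferase gene 0.555 kb from Cd8b1, read 0.103 CPM in DN3b γδ− and 0.407 CPM in DN4 γδ−, with at most 0.0529 CPM in the other libraries. Gm44175, a lincRNA between the CD8 genes on the opposite strand, read 0.106 CPM in DN3b γδ−, 0.785 CPM in DN4 γδ− and 0.158 CPM in DN4 γδ+. Krcc1, farther out, stayed between 47.5 and 80.2 CPM in all libraries. Around Cd4, the neighbour Lag3, itself an MHC class II receptor, was also highest in DN4 γδ+, at 2.95 CPM against at most 1.51 CPM elsewhere.

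Among 7029 genes with at least 20 CPM in 1 library, compared over the 7 libraries, the profile of log2(CPM + 1) most like that of both CD8 genes was that of Syt13, a synaptotagmin family gene. Its root mean square difference was 0.98 from Cd8b1 and 0.40 from Cd8a, where the median gene had 2.15 and 1.16. Syt13 read 20.3 CPM in DN4 γδ−, 10.7 in DN3b γδ−, 8.61 in DN4 γδ+ and between 0.835 and 3.32 elsewhere. The CD8 genes themselves were 1.04 apart. Next for Cd8b1, leaving out the co-receptor genes, came Hba-a1 and Hba-a2, both haemoglobin genes, at 0.99 and 1.02, then Colq and Pth at 1.13 and 1.14, farther off than Cd8a. For Cd8a came Tdrkh, Ighm, Hmgn5 and Mylpf. For Cd4, whose profile was nearly flat on this scale, they were Nbeal1, Washc3, Nfatc3, Ube4b and Pycard, at 0.13 to 0.17.

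Few genes of any kind were past 2-fold between DN3b γδ− and DN4 γδ− (0.524% upward and 0.66% downward). Of 14 partner genes (kinases, CD3 chains, TCR chains, Ptprc and Themis), 13 were above 20 CPM, and 0 were past 2-fold in either direction, with a median log2 ratio of −0.03 against −0.11 over all genes. The partner below that level, Trac, read 5.34 and 15.9 CPM (log2 ratio 1.58, upper bound 1.66), and when totals were taken without ribosomal and mitochondrial genes all 14 partners passed 20 CPM and 1 was past 2-fold upward. Lck, the kinase that the CD4 and CD8α tails hold, read 473 and 336 CPM in these libraries. Its level was 875 CPM in DN3a, 278 CPM in DN3b γδ+ and 351 CPM in DN4 γδ+, and was highest in Lat-KO cells (1319 CPM in γδ−, 1070 CPM in γδint). Of 18 regulator genes with known or proposed roles at Cd4 or the CD8 locus, 17 were above 20 CPM and 0 were past 2-fold. Satb1, a chromatin organiser of thymocytes, read 169 CPM in DN3b γδ− and 297 CPM in DN4 γδ−. Of genes that mark the DP stage, Arpp21 read 358 and 284 CPM and Aqp11 119 and 109 CPM at this step.

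At the step from DN3a to DN3b γδ−, where 11.4% of all genes above 20 CPM were past 2-fold upward and 14.6% downward, 1 of 13 partners (Zap70) was upward and 4 were downward (Themis, Cd3d, Cd3g and Ptcra). Of 17 regulators, 0 were upward and 4 downward (Runx1, Bcl11b, Patz1 and Myb). With TMM scaling, 2 partners were upward and 2 regulators downward. From DN3a to DN3b γδ+ (all genes 11.5% and 13.4%), 3 of 14 partners (Fyn, Zap70 and Trac) and 4 of 17 regulators (Runx3, Cbfb, Tox and Lef1) were upward, and 5 and 6 downward. TMM scaling gave 6 regulators upward and 4 partners downward there. From DN3b γδ+ to DN4 γδ+ (all genes 10.5% and 7.33%), 1 of 13 partners (Cd247) and 5 of 17 regulators (Runx3, Tcf12, Bcl11b, Satb1 and Ets1) were upward and 0 downward, and with TMM scaling 0 partners and 2 regulators were upward and 1 regulator downward. In Lat-KO DN3 γδ− over DN3a (all genes 2.28% and 0.557%), 0 of 12 partners and 0 of 17 regulators were past 2-fold. Within the Lat-KO pair (4.64% and 3.95%), 0 of 13 and 0 of 17 were, and TMM scaling put 1 partner downward.

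Between γδ+ and γδ− cells, Runx3, which silences Cd4 in CD8 lineage cells, was on the higher side in both stages, at 69.8 against 21.3 CPM in DN3b and 142 against 11.4 CPM in DN4. In DN4, where 18.4% of all genes above 20 CPM were past 2-fold upward in γδ+ cells and 8.96% downward, 6 of 14 partners (Fyn, Zap70, Ptprc, Cd3d, Cd247 and Trac) were upward and 1 (Ptcra) downward. Of 17 regulators, 4 were upward (Runx3, Gata3, Tox and Ets1), a share near that of all genes, and 0 downward. TMM scaling gave 5 partners and 3 regulators upward and 1 regulator downward. In DN3b (all genes 5.13% and 1.79%), 3 of 14 partners (Fyn, Cd247 and Trac) and 5 of 17 regulators (Runx3, Cbfb, Gata3, Tox and Lef1) were upward, and 1 (Ptcra) and 1 (Satb1) downward. Ccr7, S1pr1, Trac and Itgb7, listed here for the single-positive stage, were past 2-fold upward in DN4 γδ+ cells. Trac read 77.1 CPM in DN4 γδ+ against 15.9 CPM in DN4 γδ−, so its level does not mark αβ cells here. Of genes that mark the DP stage, Cd69 was past 2-fold upward there, and Arpp21 and Aqp11 were past 2-fold downward. Zbtb7b, which encodes the CD4 lineage factor ThPOK, read 1.32 CPM in DN4 γδ+ and at most 0.0613 CPM in the other libraries, where Cd4 was also lower.

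Barcodes with and without a Cd8b1 UMI after thinning to 4000 UMIs were then compared inside DN4 γδ−. The 3367 barcodes with Cd8b1 and the 8448 without it had medians of 18421 and 19639.5 UMIs before thinning and were cycling in 89.0% and 89.1%. Before thinning, 58.6% of DN4 γδ− barcodes held Cd8b1, so the set without it is mixed and includes barcodes that lost their Cd8b1 UMIs to thinning. Rmnd5a, the neighbour of Cd8a, headed the genes that were higher with Cd8b1, at 107 against 63.0 CPM (1.70-fold), followed by Rag1 at 1.48-fold, Arl5c, Glcci1 and Tubb2b (1.42- to 1.43-fold).

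Rag1, which encodes a recombinase subunit needed anew for Tcra, was not alone. Satb1 gave a log2 ratio of 0.41 (0.36 to 0.46), Ptcra 0.33 (0.23 to 0.44) and Themis 0.28 (0.19 to 0.37). Il2ra, which encodes CD25 and marks DN3 cells, gave −0.89 (−1.20 to −0.59), Maf −1.34 (−1.90 to −0.82), Runx3 −0.49 (−0.76 to −0.23) and Tox −0.48 (−0.64 to −0.32). Lck was near even at 0.06 and Trac, the TCR α constant gene, at −0.03 (−0.25 to 0.18).

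The largest differences ran the other way, in genes of other cell types. Dcn, a stromal proteoglycan gene, read 1.41 CPM with Cd8b1 and 30.2 without, and Wfdc18, Hbb-bt, Ccl21a and Hba-a1 gave log2 ratios of −3.97 to −2.21. The erythroid markers summed to 48.0 CPM with Cd8b1 and 231 CPM without, while the 10 T cell markers summed to 3627 and 3489 CPM. Barcodes with 5 or more UMIs of other cell types made up 8.58% and 9.52%. What these transcripts contribute to the differences above was not tested.

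Inside DN4 γδ+, 161 barcodes with Cd8b1 (median 6171 UMIs before thinning) were set against 6773 without (median 7512). S1pr1 and Ccr7, which serve exit from the thymus and homing, read 217 against 76.7 CPM and 96.3 against 42.0 CPM, and log2 ratios were 1.28 for Themis (1.04 to 1.51), 0.80 for Satb1 (0.59 to 0.99), 0.80 for the integrin gene Itgb7 (0.49 to 1.08) and 0.75 for Lck (0.60 to 0.89). Il2rb was lower at −1.56 (−2.30 to −0.92), as were Sox13 at −1.05 (−1.41 to −0.72) and Maf at −1.04 (−1.32 to −0.77), all genes tied to γδ effector programmes. Trdc, the TCR δ constant gene, was at 0.10 (0.02 to 0.17) and Trac at 0.19 (−0.20 to 0.56). Rag1 had 4 UMIs with Cd8b1 and 6 without, and Ptcra had 3 and 16.

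**Figure D5:**
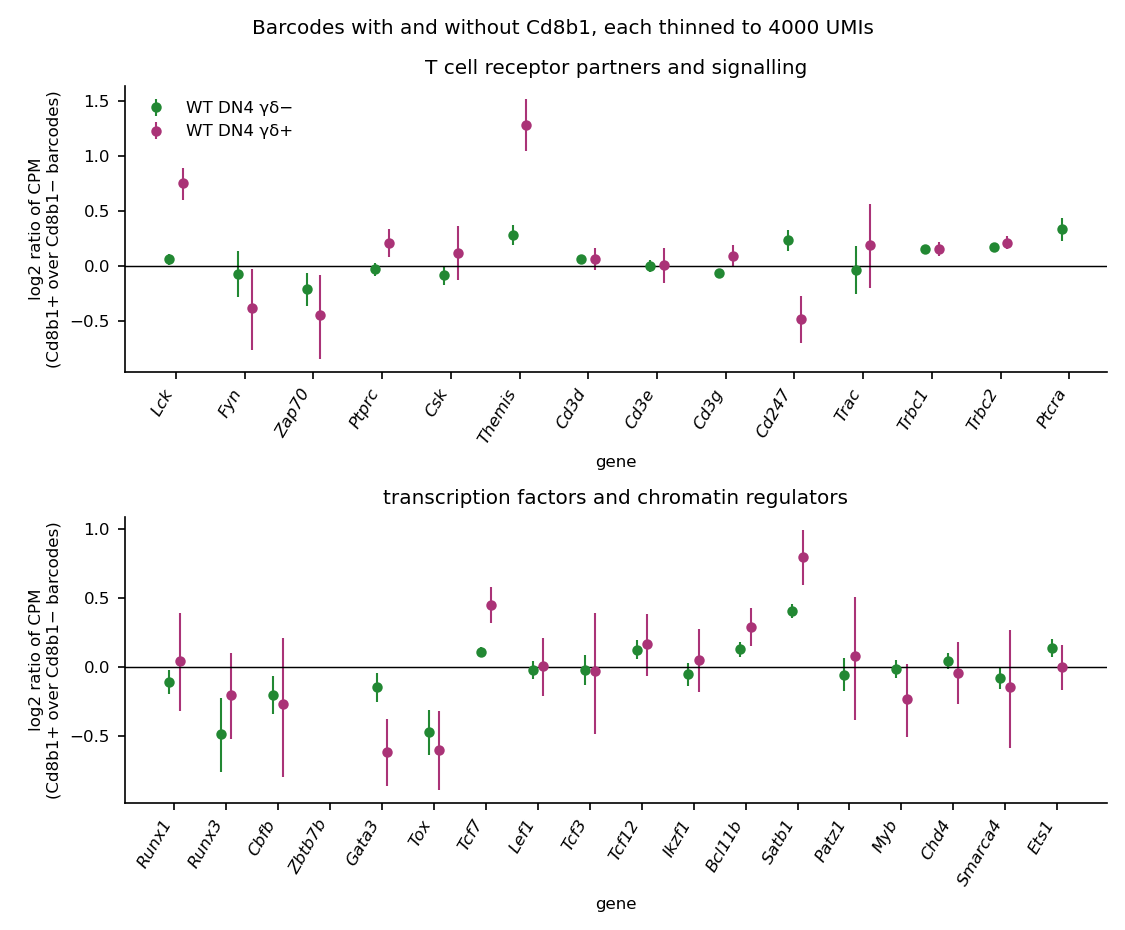
Log2 ratio of CPM between barcodes with and without a Cd8b1 UMI in DN4 γδ− and DN4 γδ+, for TCR partner and signalling genes (top) and for transcription and chromatin regulators (bottom), each barcode thinned to 4000 UMIs, with 95% intervals for counting error. Genes with 3 or fewer UMIs in either set have no point. Themis (0.28 and 1.28) and Satb1 (0.41 and 0.80) were above 0 in both libraries, and Tox (−0.48 and −0.60) below.

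Barcodes with Cd8a in DN4 γδ+ (38) held 20.6 times the Cd8b1 level of those without, 178 against 8.63 CPM, followed by Tubb2b (5.58-fold), Cldn10, Noa1 and Xrcc1. Lowest there were Igfbp4, Cpa3, the TCR γ constant gene Tcrg-C1 (0.417-fold), S100a6 and Ndufa1. Among DN4 γδ− cells, the 358 barcodes with Cd8a had 6.28 CPM of erythroid transcripts against 184 CPM without.

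Barcodes with Cd4 were few in both branches. In DN4 γδ− there were 39, with Nrgn at 269 against 8.41 CPM and Igfbp4 at 103 against 4.63 CPM (22.2-fold), then B230118H07Rik, Cd52 and Pik3ip1. Rag1 was higher in them at 1.62 (1.13 to 2.06) and the chemokine receptor gene Ccr9 at 1.26 (0.50 to 1.92), and no erythroid UMI was present. In DN4 γδ+ there were 35, led by the heat shock genes Hspa1a and Hspa1b (6.81- and 6.53-fold), Nt5e (6.04-fold), which encodes the ectonucleotidase CD73, Ptms, a neighbour of Cd4 (3.82-fold), and Izumo1r (log2 ratio 1.85), which encodes a folate receptor of regulatory T cells. The lowest were Gzma (0.251-fold), Ifngr1, 5830411N06Rik, Myb and Maf (0.373-fold). With so few barcodes, a ratio here can rest on a handful of cells.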

How the data were processed

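UMI counts per gene and barcode were deposited by the authors for 7 libraries of 10x 3′ v3 single-cell RNA-seq, mapped to mm10 without further normalization. The matrix headers name Cell Ranger 4.0.0, and the submitters' processing notes name Cell Ranger 5.0.1, R 3.6.3 and Seurat 3.1.5. No normalized values were used.

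Kept were barcodes in which 200 genes or more were detected and mitochondrial UMIs did not exceed 15%. Those with at most 1 UMI of Cd79a, Cd79b and Ms4a1 were taken as thymocytes, and those with 10 or more as B cells, or as B cells with few T cell markers where these UMIs were at least 2 times those of 10 T cell markers (chosen after seeing the data). No doublet caller was run, and 1 alternative left out the 8% of barcodes with the most UMIs. UMIs were summed per library and divided by the total (CPM). Depth, by deposited total, was 1119448954 UMIs over all libraries. Levels carry exact Poisson intervals, shares exact Clopper-Pearson ones, and ratios exact conditional binomial ones. Shares used barcodes thinned to 4000 UMIs, which left out 343 to 1769 shallower barcodes per library. No ratio was taken where both libraries had 3 UMIs or fewer.

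Genes counted as past 2-fold had at least 20 CPM in 1 of both libraries. Genes named by rule were the 5 with the profile closest to each member, annotated neighbours within 100 kb, the fixed gene lists (some members of the stage lists are not reported here), and the 5 highest and 5 lowest ratios among genes with at least 20 CPM in 1 set of barcodes and 10 UMIs in each. Members and lists were chosen with earlier results of these data known. Scripts ran under Python 3.11.15 with scipy 1.17.1, numpy 2.4.6, pandas 2.3.3 and matplotlib 3.10.9. R 4.3.3 and edgeR 4.0.16 gave TMM factors only. The computations were tested on simulated data. Sequences came from GENCODE transcripts and a RefSeq promoter table, with promoters found for 1 of 3 members.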

Additional observations from a re-analysis of the deposited data

Results flagged for a closer look

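The values here come from barcodes that the comparisons above did not use, and they stand out because the lower bound of the co-receptor level there lay above the upper limit of the added B cells with few T cell markers in the same library. Barcodes that failed the quality filter were counted here only where they held at most 1 UMI of the B cell genes. Among such DN4 γδ− barcodes that failed the quality filter (2272), Cd8b1 read 220 CPM (209 to 232), against 98.8 CPM in thymocyte barcodes and 9.41 CPM in B cells (upper limit 24.1). Cd8a read 16.2 CPM in the same barcodes (13.4 to 19.5), against 7.93 CPM in thymocyte barcodes and no UMI in B cells (upper limit 8.68).

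In DN3b γδ−, the 682 barcodes that failed the filter, under the same limit on B cell genes, held 53.3 CPM of Cd8b1 (41.2 to 67.8). Thymocyte barcodes there read 11.6 CPM, and the upper limit in B cells was 8.01 CPM. Barcodes with 2 to 9 UMIs of B cell genes, which were neither thymocyte nor B cell barcodes by the rule, held 102 CPM of Cd8b1 in DN4 γδ− (96.5 to 108.2, 526 barcodes) and 13.1 CPM in DN3b γδ− (11.9 to 14.4, 1364 barcodes). What these barcodes are was not tested.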

How the results depend on the processing

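No paired analysis was possible because each group had 1 library, and for the same reason no replicate could be left out. Among alternatives that gave a value, no direction whose interval excluded 0 turned. Where subtraction of the B cell level left nothing above 0, no value was taken, so a turn could not be seen there. Cd8b1 in DN4 γδ+ was such a case, at 12.4 CPM in all B cell barcodes against 8.65 CPM in thymocytes. The Cd8b1 log2 ratio of DN4 γδ− over DN3b γδ− (3.09) was 3.14 without barcodes holding a B cell marker UMI, 3.16 without the 8% deepest, 2.80 with the B cell level subtracted and 3.26 as the mean of the barcodes' own CPM. The share of DN4 γδ− barcodes with both Cd8a and Cd8b1 (1.31%) was 0.446% at 2000 UMIs, 2.44% at 6000 and 9.43% unthinned, and in DN4 γδ+ it was 0.368% unthinned. For DN4 γδ+ over DN3b γδ+, Cd8b1 (3.05) was 3.61 without the 8% deepest barcodes, 2.74 with TMM scaling and 3.29 as the mean of the barcodes' own CPM, which gave 1.84 for Cd8a (2.36).

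Counts of genes past 2-fold moved with the minimum level. At 5 and 50 CPM in place of 20, they were 2589 and 888 in place of 1556 for DN3b γδ− over DN3a, 143 and 33 in place of 61 for DN4 γδ− over DN3b γδ−, 2583 and 854 in place of 1489 for DN3b γδ+ over DN3a, and 1822 and 570 in place of 1036 for DN4 γδ+ over DN3b γδ+. They were 725 and 204 in place of 375 for γδ+ over γδ− in DN3b, 2716 and 920 in place of 1597 in DN4, and 403 and 78 in place of 173 for Lat-KO DN3 γδ− over DN3a.

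TMM scaling moved the median gene from 0.01 to 0.41 and the higher share of those genes from 43.8% to 74.1% for DN3b γδ− over DN3a, from 0.02 to 0.38 and 46.3% to 71.5% for DN3b γδ+ over DN3a, from 0.01 to −0.32 and 58.8% to 26.1% for DN4 γδ+ over DN3b γδ+, and from 0.10 to −0.28 and 67.2% to 39.6% for γδ+ over γδ− in DN4. For Lat-KO DN3 γδ− over DN3a the shift was 0.22 to 0.04 and 80.3% to 56.5%, and within the Lat-KO pair 0.23 to −0.03 and 54.0% to 26.6%. Without ribosomal and mitochondrial genes the higher share was 33.6%, 30.6%, 68.8%, 67.2% and 37.9% in the first 3 and the Lat-KO pairs, and 61.0% (from 74.1%) for γδ+ over γδ− in DN3b. Without the 8% deepest barcodes, Cd8b1 in DN3b γδ+ over DN3a was −0.98 in place of −0.32. Subtracting the level of all B cell barcodes gave 1.41 for Cd8b1 and 2.81 for Cd8a in DN3b γδ− over DN3a, and no value for Cd8b1 in DN4 γδ+ over DN3b γδ+ or over DN4 γδ−, nor for the Cd8b1 ratio of either Lat-KO comparison. Depth limits Cd4 and Cd8a most, since B cell upper limits exceeded their levels in all 7 libraries.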
